A study of Mus musculus with 6 samples.

Results

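The 10 genes described here carry out or switch on antigen presentation by the major histocompatibility complex (MHC): H2-K1, H2-D1, B2m, Tap1, Tap2, Cd74, H2-Aa, H2-Ab1, H2-Eb1 and Nlrc5. They were picked by symbol from 35976 genes in the count tables, with no threshold on a value but with earlier results of these data known. All 10 were found and all 10 were among the 13159 genes that passed the filter on low counts. Bulk RNA sequencing profiled neuron-enriched cells of the amygdala, taken from male C57BL/6J mice, in 6 libraries, 3 sgEgfr and 3 sgRosa. The sgEgfr mice carried guides targeting Egfr, which encodes the receptor of epidermal growth factor, and the sgRosa mice (genotype label sgRosa26) carried control guides; in both, an adeno-associated virus (AAV) expressed Cas9 from the astrocyte promoter GfaABC1D. All mice went through more than 2 weeks of expression, tube restraint for 7 days, fear conditioning for 1 day and extinction for 3 days, so no unstressed group is part of the comparison. Cas9 was driven in astrocytes while the isolation enriched for neurons, and ages are not given in the labels. Whether the libraries stem from different animals is not stated. A p-value here therefore weighs the difference between groups only against the spread of libraries within a group, which may be technical.

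MHC class I molecules sit on nearly all nucleated cells and show peptides from inside the cell to CD8+ T cells. H2-K1 and H2-D1 encode the classical heavy chains of C57BL/6 mice, B2m encodes the light chain beta-2 microglobulin, and Tap1 and Tap2 encode the transporter that brings peptides into the endoplasmic reticulum. MHC class II molecules show peptides from endosomes to CD4+ T cells and are mainly made by dendritic cells, B cells and macrophages. H2-Aa and H2-Ab1 encode the alpha and beta chains of I-A, H2-Eb1 encodes the beta chain of I-E (C57BL/6 mice make no I-E because their alpha chain gene is defective), and Cd74 encodes the invariant chain that guides class II molecules to endosomes. Nlrc5 encodes the transactivator of class I genes and its relative Ciita that of class II genes. Both act on promoters with an X box, bound by RFX and CREB-type factors, and a Y box, bound by NF-Y. In the brain, class I genes are well described in endothelial cells, glia and some neurons, and class II genes in border macrophages and activated microglia.

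The promoters are shown because the genes of both classes share this X and Y module. RefSeq promoter sequences (GRCm38.p6) were matched for 6 members: H2-K1, H2-D1, B2m, Tap1, H2-Aa and H2-Eb1. The 5 of these stretches that hold a Y box are printed here, each the 180 bases before the annotated start site and read along the gene. Capitals mark the letters CCAAT (Y box), TGACG (the half-site of the X2 box), GAANNGAAA (an IRF site), the interferon-stimulated response element (ISRE, read as GAAA, any 2 bases, GAAA) and the palindromic kB site (GGGG directly followed by ATTCCCC), each on either strand.
H2-K1 (chr17:34000348-34000527, minus strand): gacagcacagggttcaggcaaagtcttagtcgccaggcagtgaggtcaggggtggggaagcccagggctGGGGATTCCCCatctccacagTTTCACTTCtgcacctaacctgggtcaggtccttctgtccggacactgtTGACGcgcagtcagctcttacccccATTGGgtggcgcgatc
H2-D1 (chr17:35262914-35263093, plus strand): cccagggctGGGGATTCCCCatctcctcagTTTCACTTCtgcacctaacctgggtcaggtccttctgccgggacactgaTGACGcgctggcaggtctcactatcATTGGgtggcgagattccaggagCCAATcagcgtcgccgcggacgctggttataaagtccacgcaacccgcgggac
B2m (chr2:122147507-122147686, plus strand): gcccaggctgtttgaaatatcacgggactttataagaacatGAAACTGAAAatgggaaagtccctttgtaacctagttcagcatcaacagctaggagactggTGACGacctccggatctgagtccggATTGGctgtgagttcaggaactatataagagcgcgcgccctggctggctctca
H2-Aa (chr17:34287824-34288003, minus strand): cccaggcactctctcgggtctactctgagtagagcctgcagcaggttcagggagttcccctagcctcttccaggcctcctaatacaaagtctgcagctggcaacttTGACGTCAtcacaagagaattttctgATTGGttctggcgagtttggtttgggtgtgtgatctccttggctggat
H2-Eb1 (chr17:34305687-34305866, plus strand): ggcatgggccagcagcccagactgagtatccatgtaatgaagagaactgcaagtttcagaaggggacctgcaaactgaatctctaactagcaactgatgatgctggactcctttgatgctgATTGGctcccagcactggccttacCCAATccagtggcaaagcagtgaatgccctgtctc

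In H2-K1, H2-D1 and B2m, TGACG was followed by ATTGG, the Y box read from the other strand, after 20 bases each. In H2-Aa the gap was 21 bases. TGACG followed by ATTGG after 12 to 32 bases was found in 0.322% of the 27025 promoters of the same length. H2-Eb1 held Y boxes but not the letters TGACG. Tap1 held TGACG but no Y box. H2-K1 and H2-D1 also shared the kB letters, found in 0.0222% of promoters, followed by the IRF letters, found in 4.41%. B2m held the ISRE letters, found in 2.07%. CCAAT was found in 28.2% of promoters and TGACG in 4054 of the 27025. In H2-Aa, TGACG overlapped a second match on the other strand, and no other motifs overlapped. RefSeq places the start of H2-D1 inside the GENCODE gene, so distances from the start are not aligned between H2-K1 and H2-D1. These are matches of letters in a window, and the letters searched were chosen with the sequences in view.

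**Figure D1:**
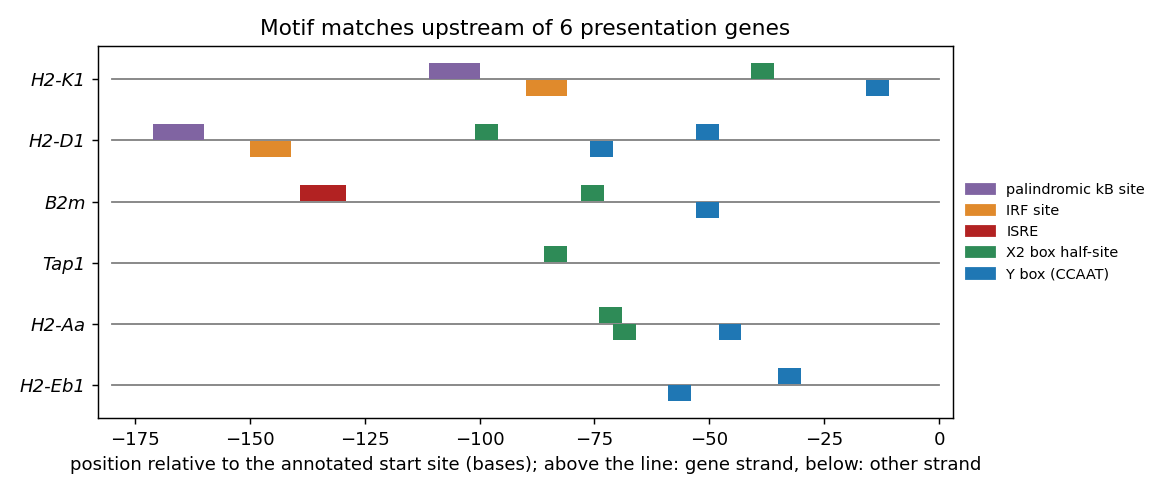
Motif matches in the 180 bases before the annotated start site (x axis, bases) of 6 presentation genes (rows); boxes above the line are on the gene strand and boxes below on the other strand. TGACG lies 20 bases before ATTGG in H2-K1, H2-D1 and B2m and 21 bases before it in H2-Aa.

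Depth and makeup set the precision of what follows. Total counts were between 2520426 and 4849404 in the sgEgfr libraries and between 2348897 and 10152812 in the sgRosa libraries, and a floor of 3 counts corresponded to 0.270 to 1.25 CPM (counts scaled to a common library size, with TMM factors). Egfr had 6, 18 and 6 counts in sgEgfr replicates 1, 2 and 3, against 1, 26 and 23 counts in sgRosa replicates 1, 2 and 3, too few in these neuron-enriched cells to check the edit. Areg, which encodes a ligand of that receptor, had at most 6 counts in any library. Neuron markers were present in every library, and so were markers of other cells. The 12 neuron markers summed to 3820, 2590 and 4471 CPM in sgEgfr libraries, against 1777, 1546 and 4539 CPM in sgRosa libraries; all 12 had log2 fold changes above 0. Markers of oligodendrocytes summed higher than those of neurons in every library. The 10 oligodendrocyte markers, all with log2 fold changes below 0, summed to 22648 to 57947 CPM in sgEgfr libraries, against 24623 to 72656 CPM in sgRosa libraries. No neuron or oligodendrocyte marker passed by edgeR, and 1 of each list had an unadjusted p under 0.05. The 10 astrocyte markers summed to 948, 1225 and 495 CPM in sgEgfr libraries, against 659, 1053 and 641 CPM in sgRosa libraries, so astrocyte RNA was among what was sequenced. Choroid plexus and ependymal markers summed to 2238 CPM in sgEgfr replicate 1 and 3466 CPM in sgRosa replicate 3, and to at most 68.1 CPM in the other 4 libraries. In bulk RNA, fewer cells of a type and less RNA per cell cannot be told apart.

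Over all 6 libraries the genes spanned a wide range of levels per length. RPKM (TMM-scaled CPM per kilobase of the principal GENCODE M21 transcript) averaged 112 for B2m, 109.6 for Cd74, 100.2 for H2-K1 and 91.2 for H2-D1. H2-Ab1 followed at 55.5 and H2-Aa at 19.5 RPKM. Tap2 averaged 9.11, Tap1 4.85, H2-Eb1 4.15 and Nlrc5 0.403 RPKM. The first 4 could not be ordered beyond their spread: B2m was above Cd74 in 1 of 6 libraries and Cd74 above H2-K1 in 3 of 6. H2-K1 was above H2-D1 in 5 of 6, H2-D1 above H2-Ab1 in 4 of 6, and H2-Aa above Tap2 in 5 of 6 libraries. H2-Ab1 was above H2-Aa, Tap2 above Tap1, and H2-Eb1 above Nlrc5 in 6 of 6 libraries, whereas Tap1 was above H2-Eb1 in 3 of 6. With all annotated exons as the length, H2-K1 averaged 55.2, H2-Ab1 26.2, H2-Aa 5.78 and Tap1 2.61 RPKM, each lower by over 1.5 times. The order then turned for 3 pairs, with H2-D1 at 74.4 RPKM above H2-K1, Tap2 at 8.29 RPKM above H2-Aa, and H2-Eb1 at 3.56 RPKM above Tap1.

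No member passed the comparison of sgEgfr with sgRosa, which sets neuron-enriched amygdala cells of stressed mice with Egfr guides in astrocytes against those with control guides. Of the 10 genes, 0 passed edgeR's quasi-likelihood test at an adjusted p of 0.05, as did 0% of all genes tested, and 0 of 10 had an unadjusted p under 0.05, against 6.16% of all genes (3.23% higher and 2.93% lower). Limma-voom and DESeq2 also called 0 of the 10, against 0% and 0.41% of all genes with a defined adjusted p, DESeq2 with an undefined adjusted p for Tap1, H2-Eb1 and Nlrc5. Of the members, 6 had a log2 fold change above 0, as did 46.3% of all genes, and the median over the 10 was 0.51, beside -0.04 over all genes. The groups did not overlap for 2 of 10, both higher in sgEgfr; 5.8% of all genes separated in that direction and 13.4% in either.

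**Figure D2:**
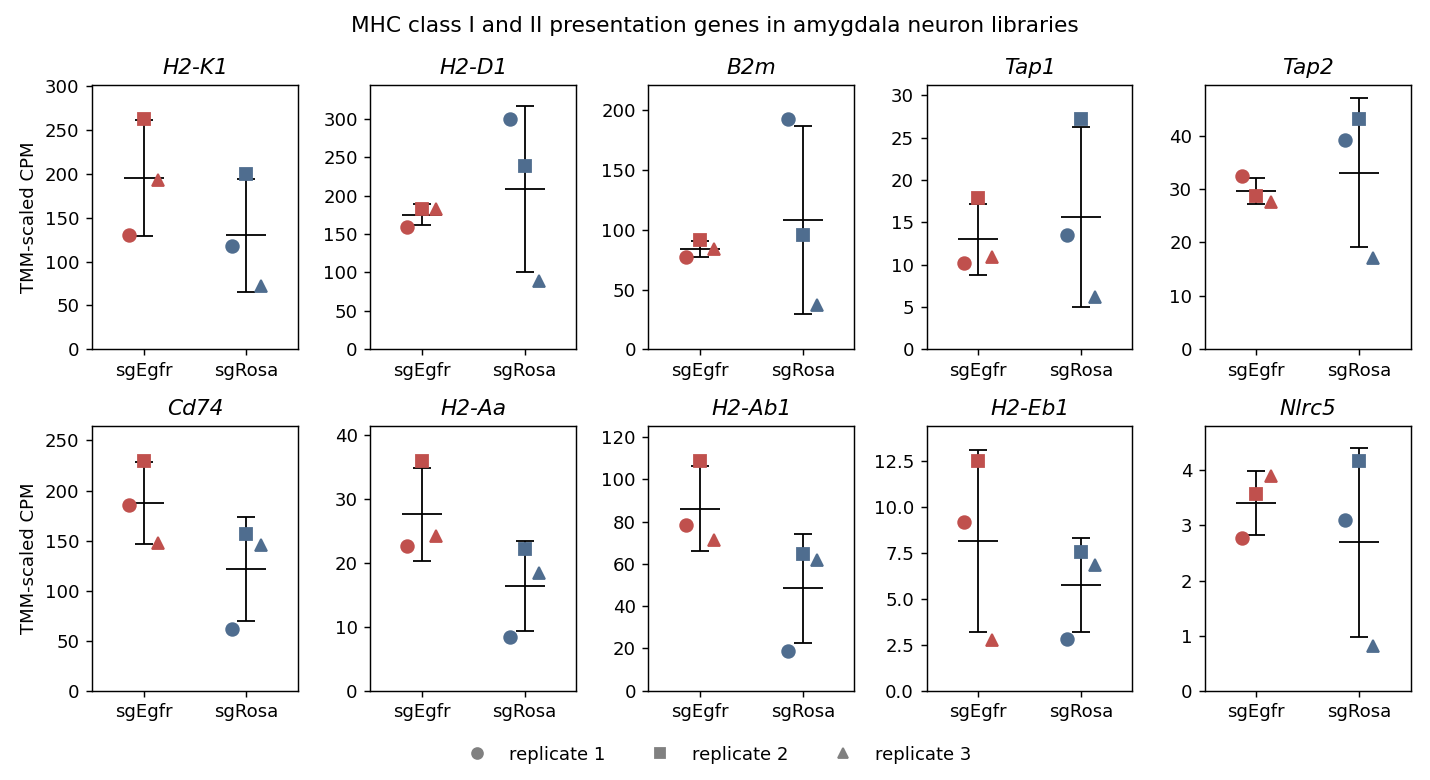
TMM-scaled CPM (y axis) of each of the 10 genes in the 3 sgEgfr (red) and 3 sgRosa (blue) libraries; symbols mark replicates, horizontal bars the mean and error bars the SD. H2-Aa and H2-Ab1 do not overlap between groups. By the ratio of highest to lowest library, sgRosa is wider apart than sgEgfr for every gene but H2-Eb1.

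The 4 class II genes all averaged higher in sgEgfr, with fitted folds of 1.45 to 1.78, without passing the test. H2-Ab1 was at 78.5, 108.9 and 71.3 CPM in sgEgfr replicates 1, 2 and 3, against 18.6, 64.7 and 61.9 CPM in sgRosa replicates 1, 2 and 3. Every sgEgfr library lay above every sgRosa library, but the nearest pair, sgEgfr replicate 3 and sgRosa replicate 2, had counting intervals that overlapped (61.4 to 82.4 and 55.0 to 75.8 CPM, exact Poisson, 95%, counting error only). Its log2 fold change was 0.83 (SE 0.45, 95% interval -0.21 to 1.87; edgeR adjusted p = 0.783).

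H2-Aa, the partner chain, showed the same order of groups at a lower level. It was at 22.6, 35.9 and 24.2 CPM in sgEgfr libraries, against 8.44, 22.1 and 18.5 CPM in sgRosa libraries. The lowest sgEgfr library and the highest sgRosa library differed by less than counting error (18.5 to 27.3 and 16.6 to 29.0 CPM). The log2 fold change was 0.76 (SE 0.38, 95% interval -0.12 to 1.64; edgeR adjusted p = 0.781).

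Cd74, highest per length of the class II genes, was at 185, 229.8 and 148 CPM in sgEgfr libraries, against 61.9, 157 and 146 CPM in sgRosa libraries. The groups overlapped, with sgRosa replicate 1 far below the other 5 libraries. The log2 fold change of Cd74 was 0.63 (SE 0.38, 95% interval -0.25 to 1.503; edgeR adjusted p = 0.798).

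H2-Eb1 was sparse, with 43, 56 and 7 counts in sgEgfr libraries, against 10, 18 and 76 counts in sgRosa libraries. These counts corresponded to 9.17, 12.5 and 2.73 CPM in sgEgfr and 2.81, 7.52 and 6.84 CPM in sgRosa. The groups overlapped, and sgEgfr replicate 3 held the lowest level of the 6. The log2 fold change of H2-Eb1 was 0.53 (SE 0.57; edgeR adjusted p = 0.873), and 0.95 without sgEgfr replicate 3 and 0.13 without sgEgfr replicate 2.

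Leaving out sgRosa replicate 1, the lowest library for Cd74, H2-Aa and H2-Ab1, lowered the log2 fold changes of all 4 class II genes, to 0.33 for Cd74, 0.47 for H2-Aa, 0.47 for H2-Ab1 and 0.25 for H2-Eb1. Without sgRosa replicate 2 they were 0.90, 1.07, 1.147 and 0.78 in the same order. The sign stayed positive under every alternative tried, and no alternative gave an adjusted p under 0.05. The ratio of Cd74 to the sum of the 3 class II chains was 1.68, 1.46 and 1.504 in sgEgfr libraries, against 2.08, 1.66 and 1.67 in sgRosa libraries, and was not tested.

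Markers of class II-bearing cells were read in the same libraries. The 16 microglia markers summed to 441, 669 and 49.5 CPM in sgEgfr libraries, against 104, 176 and 227 CPM in sgRosa libraries. The 4 class II genes summed to 295, 387 and 246 CPM in sgEgfr, against 91.7, 251 and 233 CPM in sgRosa. The lowest microglia sum was in sgEgfr replicate 3, which had the lowest class II sum of the sgEgfr libraries and the lowest H2-Eb1 level of all 6. The class II sum of sgEgfr replicate 3 was above sgRosa replicates 1 and 3 and below sgRosa replicate 2. Its H2-Aa and H2-Ab1 levels were above every sgRosa library, with counting intervals that overlapped those of sgRosa replicate 2. The ratio of class II to microglia sums was 0.669, 0.579 and 4.97 in sgEgfr libraries, against 0.883, 1.43 and 1.03 in sgRosa libraries, and was not tested. The fractalkine receptor gene Cx3cr1, a defining microglia marker, had 159, 223 and 5 counts in sgEgfr libraries, against 26, 34 and 138 counts in sgRosa libraries. Scaled for depth, Cx3cr1 was at 33.9, 49.8 and 1.95 CPM in sgEgfr, against 7.31, 14.2 and 12.4 CPM in sgRosa. Of 15 tested microglia markers 14 had positive log2 fold changes, with a median of 1.31; none passed by edgeR (smallest adjusted p = 0.781), 1 (Itgam) had an unadjusted p under 0.05, and none had separated groups.

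Of the 8 dendritic cell markers 3 were tested, and 0 passed by edgeR. The 8 markers summed to 60.8, 60.7 and 64.3 CPM in sgEgfr libraries, against 37.4, 40.9 and 36.8 CPM in sgRosa libraries, without overlap. Most of that sum was the transcription factor gene Zbtb46, which endothelial cells also make, at 39.0, 37.9 and 46.8 CPM in sgEgfr, against 32.3, 30.5 and 21.8 CPM in sgRosa. The chemokine receptor gene Ccr7 had 35, 54 and 12 counts in sgEgfr, against 3, 5 and 20 counts in sgRosa. Scaled for depth, Ccr7 was at 7.46, 12.05 and 4.68 CPM in sgEgfr, against 0.844, 2.09 and 1.80 CPM in sgRosa, without overlap. The log2 fold change of Ccr7 was 2.35 (SE 0.507). Cd209a overlapped between groups, with 53, 20 and 14 counts in sgEgfr, against 9, 10 and 105 counts in sgRosa. In CPM Cd209a was at 11.3, 4.46 and 5.46 in sgEgfr, against 2.53, 4.18 and 9.45 in sgRosa. Zbtb46 and Ccr7 had unadjusted p under 0.05 by edgeR and did not pass over all genes (edgeR adjusted p = 0.781 each). These 2 of the 3 tested markers also had separated groups, higher in sgEgfr. Over all genes 6.16% had an unadjusted p under 0.05 by edgeR and 5.8% separated in that direction. The nearest libraries for Ccr7 rested on 12 counts in sgEgfr replicate 3 and 5 counts in sgRosa replicate 2. The defining dendritic genes Flt3, Itgax, Xcr1 and Clec9a held 10 counts or fewer per library; Itgax was at 0 in sgEgfr replicate 3 and sgRosa replicate 1, and Xcr1 in sgEgfr replicate 1 and sgRosa replicate 2.

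Border macrophage markers summed to 15.4, 19.4 and 13.2 CPM in sgEgfr libraries, against 8.72, 15.9 and 11.8 CPM in sgRosa libraries. Of the 8, 2 were tested, Mrc1 (groups not overlapping, higher in sgEgfr, as in 5.8% of all genes) and F13a1 (overlapping). Mrc1 was sparse, at 4.48, 4.46 and 3.12 CPM in sgEgfr, against 2.81, 0.418 and 1.80 CPM in sgRosa. Its nearest libraries rested on 8 counts in sgEgfr replicate 3 and 10 counts in sgRosa replicate 1. Ms4a7 was at 0 in sgRosa replicate 2. B cell markers summed to 1.49 to 2.73 CPM in sgEgfr, against 1.35 to 2.53 CPM in sgRosa. T and NK cell markers summed to 3.84 to 5.46 CPM in sgEgfr, against 1.80 to 9.56 CPM in sgRosa. Monocyte and neutrophil markers summed to 4.29 to 12.4 CPM in sgEgfr, against 9.28 to 14.6 CPM in sgRosa. The part of microglia, dendritic cell or macrophage RNA in the class II levels was not tested. 

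**Figure D3:**
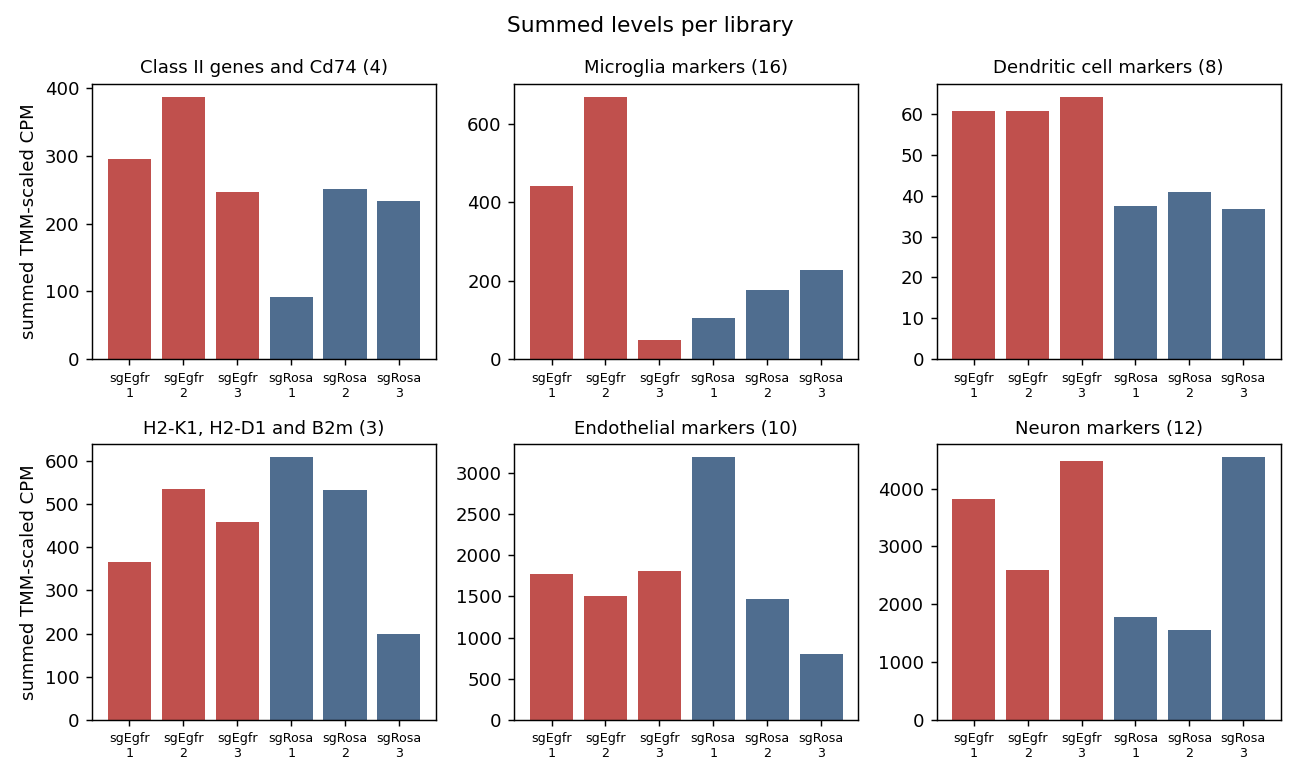
Summed TMM-scaled CPM (y axis) in each library (x axis; sgEgfr red, sgRosa blue) of the 4 class II genes, the 3 class I genes and 4 marker lists, with the number of genes in brackets. sgEgfr replicate 3 has the lowest microglia sum, 49.5 CPM, and a class II sum of 246 CPM, and sgRosa replicate 1 has the highest endothelial and class I sums.

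The class I genes had fold changes of both signs, and none passed. H2-K1 was at 129.9, 262 and 193 CPM in sgEgfr libraries, against 117, 199 and 72.7 CPM in sgRosa libraries. The groups overlapped, with replicate 2 the highest of each group. The log2 fold change was 0.59 (SE 0.42, 95% interval -0.38 to 1.56; edgeR adjusted p = 0.811). It was 1.05 without sgRosa replicate 2, 0.30 without sgRosa replicate 3, 0.33 without sgEgfr replicate 2 and 0.02 by limma-voom.

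H2-D1 was at 159, 183 and 183 CPM in sgEgfr libraries, against 299, 238 and 89.0 CPM in sgRosa libraries. The sgEgfr values fell between the extremes of sgRosa, whose highest library was 3.36 times its lowest, against 1.149 times in sgEgfr. The log2 fold change was -0.26 (SE 0.42; edgeR adjusted p = 0.921), 0.11 without sgRosa replicate 1 and -0.63 without sgRosa replicate 3.

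B2m, the shared light chain gene, was at 77.2, 91.0 and 83.8 CPM in sgEgfr libraries, against 192, 95.6 and 36.8 CPM in sgRosa libraries. sgRosa replicates 1 and 3 were the highest and the lowest of all 6. The log2 fold change of B2m was -0.36 (SE 0.51; edgeR adjusted p = 0.902), 0.36 without sgRosa replicate 1 and -0.79 without sgRosa replicate 3.

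The balance within class I also set sgRosa replicate 1 apart. The ratio of H2-K1 to H2-D1 in CPM was 0.816, 1.43 and 1.06 in sgEgfr libraries, against 0.392, 0.835 and 0.817 in sgRosa libraries. The ratio of B2m to H2-K1 plus H2-D1 was 0.267, 0.205 and 0.223 in sgEgfr, against 0.461, 0.219 and 0.228 in sgRosa. The ratio of class II to class I sums was 0.807, 0.723 and 0.535 in sgEgfr, against 0.151, 0.471 and 1.17 in sgRosa, with both extremes among the controls. These ratios were not tested.

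Endothelial markers, of cells rich in class I, had the same highest and lowest libraries as the class I sum, sgRosa replicates 1 and 3. Pericyte and fibroblast markers had these extremes too. So did the sum of the interferon receptor and signalling genes, at 787 CPM in sgRosa replicate 1 and 547 CPM in sgRosa replicate 3. The shared extremes were therefore not particular to vascular markers. The order of the remaining libraries differed between the endothelial and class I sums. H2-K1 by itself was highest in sgEgfr replicate 2, at 262 CPM, and was at 117 CPM in sgRosa replicate 1. The 10 endothelial markers summed to 1770, 1500 and 1808 CPM in sgEgfr libraries, against 3189, 1469 and 801 CPM in sgRosa libraries. The 3 class I genes summed to 366, 535 and 459 CPM in sgEgfr, against 608, 533 and 199 CPM in sgRosa. Pericyte and fibroblast markers summed to 728, 660.5 and 353 CPM in sgEgfr, against 981, 752 and 252 CPM in sgRosa. The part of vascular RNA in the class I levels was not tested.

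Tap1 and Tap2 averaged slightly lower in sgEgfr, well within the spread. Tap1 was at 10.2, 17.9 and 10.9 CPM in sgEgfr libraries, against 13.5, 27.1 and 6.21 CPM in sgRosa libraries, with a log2 fold change of -0.23 (SE 0.52; edgeR adjusted p = 0.946). Tap2 was at 32.4, 28.8 and 27.7 CPM in sgEgfr libraries, against 39.1, 43.0 and 17.1 CPM in sgRosa libraries, with a log2 fold change of -0.15 (SE 0.35; edgeR adjusted p = 0.946). In both genes sgRosa replicate 2 was the highest library and sgRosa replicate 3 the lowest. Without sgRosa replicate 2 the values were 0.44 for Tap1 and 0.09 for Tap2.

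Nlrc5, the class I transactivator gene, was sparse, with 13, 16 and 10 counts in sgEgfr libraries, against 11, 10 and 9 counts in sgRosa libraries. In CPM it was at 2.77, 3.57 and 3.90 in sgEgfr, against 3.09, 4.18 and 0.810 in sgRosa. Its log2 fold change of 0.48 (SE 0.64; edgeR adjusted p = 0.892) was -0.09 without sgRosa replicate 3. Ciita, the class II transactivator gene, had 2, 3 and 3 counts in sgEgfr libraries, against 0, 1 and 3 counts in sgRosa libraries, and was not tested.

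**Figure D4:**
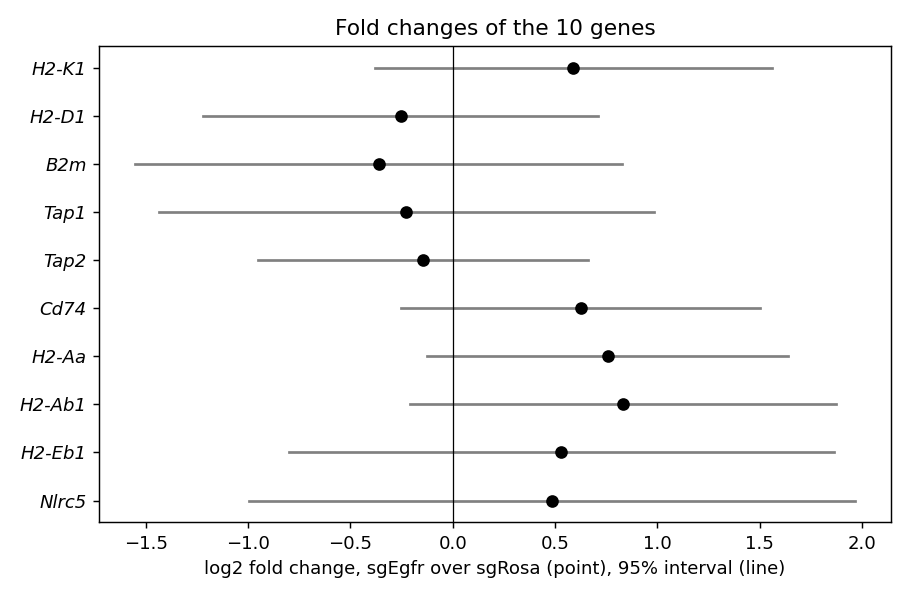
Log2 fold change of sgEgfr over sgRosa (x axis; point) with the 95% interval of the edgeR fit (line) for each of the 10 genes (rows). All 10 intervals include 0, and the 4 class II genes lie between 0.53 and 0.83.

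**Figure D5:**
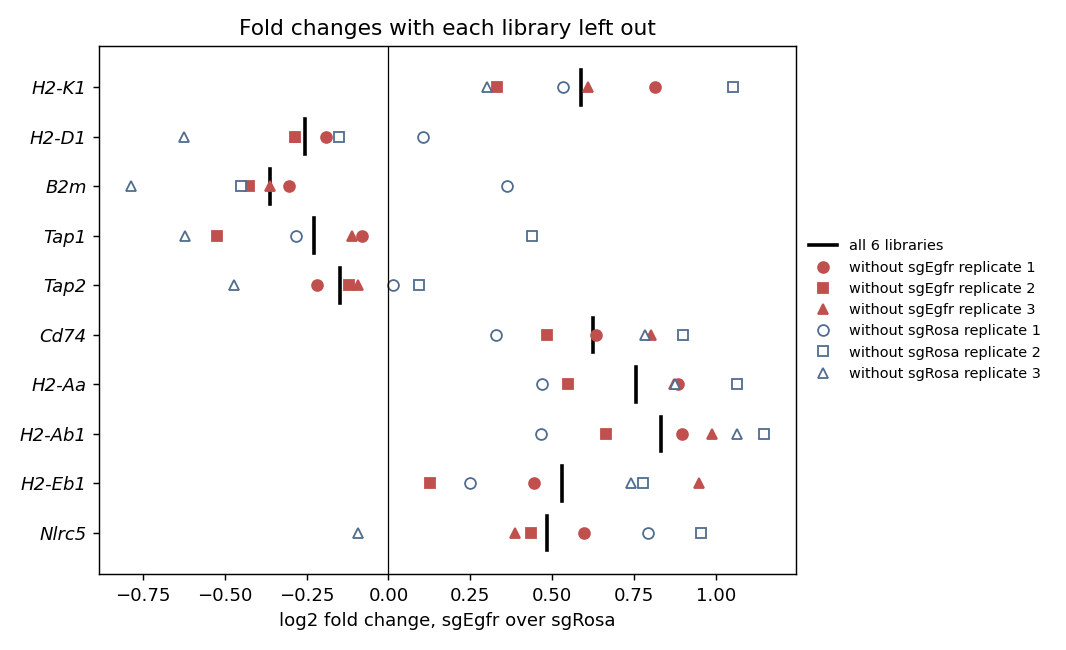
Log2 fold change of each gene with all 6 libraries (black bar) and with each library left out (symbols; filled red, an sgEgfr library left out; open blue, an sgRosa library left out). The class II genes stay above 0, and H2-D1, B2m, Tap1, Tap2 and Nlrc5 cross 0 when 1 sgRosa library is left out.

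The 7 members on chromosome 17 (Tap1, Tap2, H2-K1, H2-D1, H2-Aa, H2-Ab1 and H2-Eb1) span the mouse MHC in mm10, from H2-K1 (33996017 to 34000347, minus strand) past Tap1 (34187553 to 34197225, plus strand), Tap2 (34203527 to 34216321, plus strand), H2-Ab1 (34257689 to 34269419, plus strand), H2-Aa (34282744 to 34287823, minus strand) and H2-Eb1 (34305867 to 34316674, plus strand) to H2-D1 (35262730 to 35267499, plus strand). B2m lies on chromosome 2 (122147686 to 122153083, plus strand), Cd74 on chromosome 18 and Nlrc5 on chromosome 8 (94434356 to 94527272, plus strand). Class I heavy chains are close copies of one another, which limits what counts can tell. Of all windows of 50 bases in the longest transcript, 8.11% in H2-K1 and 14.3% in H2-D1 also occurred in transcripts of other genes, mainly H2-D1, H2-Q1 and H2-T23 for H2-K1 and H2-Q1, H2-Q7 and H2-Q6 for H2-D1. With windows of 100 bases the shares were 0% and 4.64%. B2m, Cd74, H2-Ab1, H2-Eb1 and Nlrc5 had 0 shared windows of 50 bases. Exons of Tap1 overlap Psmb9 on the opposite strand over 212 bases, exons of Tap2 overlap annotated noncoding genes on the opposite strand (Gm15821 over 533 bases), and exons of Nlrc5 overlap 9330175E14Rik over 78 bases. Whether reads were counted by strand is not given in the sources used here. Reads of such partners therefore cannot be told apart within the shared bases. These were 3.87% of the exon bases of Tap1, 14.1% of those of Tap2 (Gm15821) and 0.918% of those of Nlrc5. Psmb9 had 91 counts over all 6 libraries and 9330175E14Rik had 3, and the partners of Tap2 were not in the counts.

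Other genes of the pathway were counted from lists written with earlier results of these data known. Of 13 further class I heavy chain genes 6 were tested, 3 with positive and 3 with negative log2 fold changes (median -0.04). None passed by edgeR and 0 had an unadjusted p under 0.05. H2-T24 was at 15.4, 14.95 and 10.1 CPM in sgEgfr, against 10.1, 8.77 and 8.28 CPM in sgRosa, and Mr1, which presents vitamin B metabolites, was at 6.18, 4.24 and 0.779 CPM in sgEgfr, against 9.84, 7.94 and 7.02 CPM in sgRosa. The groups did not overlap for either gene, in opposite directions, 2 of the 6 tested against 13.4% of all genes. For both genes the nearest libraries differed by less than counting error. In Mr1 these were sgEgfr replicate 1 with 29 counts and sgRosa replicate 3 with 78 counts. Mr1 had 2 counts in sgEgfr replicate 3, under the floor of 3 counts. H2-Q4 (log2 fold change 1.41, SE 0.65) and H2-T22 (-0.15, SE 0.32) overlapped between groups.

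Of 13 genes for peptide supply and loading of class I all were tested, 5 with positive and 8 with negative log2 fold changes (median -0.19). None passed by edgeR and 0 had an unadjusted p under 0.05. Pdia3, a disulfide isomerase of the loading complex, averaged 192 ± 35.3 CPM in sgEgfr and 303 ± 75.1 CPM in sgRosa (SD, n = 3 each; log2 fold change -0.66, SE 0.29; edgeR adjusted p = 0.781). The chaperone gene Calr was at -0.28 and the proteasome activator genes Psme1 and Psme2 at -0.38 each. Pdia3, Psme2 and Calr did not overlap between groups, 3 of 13 genes on the lower side, against 7.6% of all genes.

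Of 12 further class II genes 6 were tested, 4 with positive and 2 with negative log2 fold changes (median 0.14). None passed by edgeR and 1, March1, had an unadjusted p under 0.05. March1, a ubiquitin ligase that sends class II molecules to degradation, was at 43.1, 33.9 and 40.1 CPM in sgEgfr libraries, against 18.0, 22.97 and 27.0 CPM in sgRosa libraries. All sgEgfr values lay above all sgRosa values, with a log2 fold change of 0.78 (SE 0.24; unadjusted p = 0.0116, edgeR adjusted p = 0.781). The endosomal protease gene Ctss, itself a microglia marker, was at 43.9, 74.1 and 3.12 CPM in sgEgfr, against 13.8, 16.7 and 25.2 CPM in sgRosa. Lgmn (-0.44) and the peptide exchange gene H2-DMa (-0.37) overlapped between groups. H2-Eb2 had 0 counts in all libraries.

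Of 12 transcription factor genes of the MHC promoters 11 were tested, 5 positive and 6 negative (median -0.002). None passed by edgeR, 0 had an unadjusted p under 0.05 and none had separated groups. The RFX subunit gene Rfxank was at -0.51, and the NF-Y subunit genes Nfyc and Nfya at -0.33 and 0.32. Of 11 interferon receptor and signalling genes 10 were tested, 5 in each direction (median -0.08), among them Tyk2 (-0.57), Jak2 (0.43) and Ifnar1 (0.31); Tyk2 (lower in sgEgfr) and Ifnar1 (higher in sgEgfr) did not overlap between groups, 2 of 10 genes against 13.4% of all genes. None of the 10 passed by edgeR, and 0 had an unadjusted p under 0.05.

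Of 28 interferon-stimulated genes 23 were tested, 9 with positive and 14 with negative log2 fold changes (median -0.22). None passed by edgeR, and 2 of the 23, Rsad2 and Ifi27, had an unadjusted p under 0.05, against 6.16% of all genes. The same 2 had separated groups, against 13.4% of all genes. Rsad2 was the 1 gene of these 6 pathway lists that DESeq2 called. The antiviral gene Rsad2 was at 65.9, 120.0 and 58.8 CPM in sgEgfr, against 13.2, 26.7 and 11.7 CPM in sgRosa (log2 fold change 2.26, SE 0.42; edgeR adjusted p = 0.781, DESeq2 adjusted p = 0.00152). Ifi27, which also did not overlap, was at 25.0, 21.9 and 13.2 CPM in sgEgfr, against 44.2, 27.6 and 32.6 CPM in sgRosa (log2 fold change -0.79, SE 0.31). Xaf1 (-1.37, SE 0.62) and the immunity-related GTPase gene Irgm1 (-1.14, SE 0.84) overlapped between groups.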

How the data were processed

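Whole-number read counts per gene, not normalized, are what the authors deposited, both library by library and as a series table; its columns for the 6 libraries held the same values, and 3 columns that matched no sample were left out. The submitters' processing notes name mm10, STAR 2.7.5c, fastp 0.23.2, edgeR 3.42.4, featureCounts 2.0.1, MultiQC 1.11 and FastQC 0.11.9, without annotation or strand setting. Cells came from papain digestion and magnetic neuron isolation, and 5 ng of RNA went into each library, per the labels' protocols. Counts carry no molecular identifiers, so intervals and floors cover counting error only.

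Libraries were grouped by title. After filterByExpr (minimum count 10, minimum total 15) and TMM scaling, 13159 genes were fitted with the quasi-likelihood test of edgeR 4.0.16 (robust, R 4.3.3). No covariates were used, and adjustment was by Benjamini-Hochberg. This procedure was tested on simulated data with changes larger than any fitted for the members. That run therefore does not show whether changes of the members' size would be called. Standard errors and intervals of log2 fold changes come from the F statistic and its degrees of freedom. No 2 libraries agreed within sampling noise (lowest chi-square per degree of freedom 10.4).

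The members and lists were chosen with earlier results of these data known. The rule named the 10 members, Egfr, Areg, the 4 tested genes with the smallest p of each pathway list, and the 5 genes closest to each class profile; other genes were named after their values were seen, and 1 gene under the rule is not reported here. Of 212 list genes 209 were in the counts; Ighm, Trac and Trbc2 were not found. Transcript lengths for RPKM were changed to the principal transcript, and the legacy form of the edgeR fit was replaced, after values had been seen. Alternatives were scaling by RLE or by library size, a fit with no filter, a filter of 1 CPM in 3 libraries with mean counts of 20, limma-voom with quality weights (limma 3.58.1), DESeq2 1.42.0, a replicate block, a threshold of 0.1, each library left out, the 2 libraries with choroid plexus RNA left out, and the legacy fit, the last chosen after seeing the data.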

Additional observations from a re-analysis of the deposited data

How the results depend on the processing

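All 10 genes stayed without a call under every alternative run (adjusted p between 0.198 and 0.999). DESeq2 called 31 genes higher and 2 lower over the whole table, against 0 and 0 by edgeR. Without each library in turn edgeR called 0 genes in either direction and 0 of the 10, and the median log2 fold change of the 10 lay between 0.11 and 0.84. Signs turned in 6 cases, all without 1 sgRosa library: without replicate 1, H2-D1 was at 0.11, B2m at 0.36 and Tap2 at 0.0145; without replicate 2, Tap1 was at 0.44 and Tap2 at 0.0928; without replicate 3, Nlrc5 was at -0.0916. With each library left out, log2 fold changes lay between 0.30 and 1.05 for H2-K1, -0.63 and 0.11 for H2-D1, -0.79 and 0.36 for B2m, -0.62 and 0.44 for Tap1, -0.47 and 0.0928 for Tap2, 0.33 and 0.90 for Cd74, 0.47 and 1.07 for H2-Aa, 0.47 and 1.147 for H2-Ab1, 0.13 and 0.95 for H2-Eb1, and -0.0916 and 0.95 for Nlrc5. The cause was not tested. Without the 2 libraries rich in choroid plexus markers, log2 fold changes were 0.53 for H2-K1, -0.55 for H2-D1, -0.71 for B2m, -0.47 for Tap1, -0.53 for Tap2, 0.79 for Cd74, 1.00 for H2-Aa, 1.13 for H2-Ab1, 0.66 for H2-Eb1 and 0.0547 for Nlrc5 (median 0.29 over the 10). The stricter filter removed Nlrc5. Replicate numbers were shared between groups, and the numbers alone do not say whether these libraries were paired. Correlations of deviations were -0.031, 0.478 and 0.279 for same-numbered libraries, against -0.455 to 0.207 for differently numbered ones. With the replicate block 0 genes were called. H2-Ab1 was then at 0.99 (edgeR unadjusted p = 0.0308, adjusted p = 0.490) and H2-Aa at 0.82 (edgeR unadjusted p = 0.0227, adjusted p = 0.490). Class I members also had an unadjusted p under 0.05 by edgeR in other alternatives, in both directions. Without sgRosa replicate 3 these were H2-D1 (-0.63) and B2m (-0.79), both lower in sgEgfr. Without sgRosa replicate 2 they were H2-K1 (1.05) and, of class II, H2-Aa (1.07), both higher. None passed after adjustment, and the share of all genes under 0.05 in these fits is not given here. At 7 to 18 counts in 3 libraries for H2-Eb1 and 9 to 16 counts for Nlrc5, depth limits both.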

Other observations

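Profiles over the 6 libraries were compared with the members' by the root mean square difference in centred log2 CPM, over 10014 genes with a mean log2 CPM of at least 3. With this many genes and 6 libraries, close profiles are found for any pattern. Closest to the class II mean were Fn3krp (0.136), Mkrn1 (0.164), Stk40 (0.197), the nuclear receptor gene Nr4a3 (0.207) and Dhrs3 (0.218), against 0.646 for the class II profile itself. Closest to the mean of H2-K1, H2-D1 and B2m were the laminin gene Lama5 (0.0925), the proton-sensing receptor gene Gpr4 (0.102), Dusp11 (0.104), the helicase gene Wrn (0.108) and Usp54 (0.120), against 0.530 for the class I profile.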
